A study of Rattus norvegicus with 10 samples.

Results

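Liver RNA of rats given MASM and then total body irradiation (TBI) was compared with liver RNA of untreated control rats. MASM is a derivative of matrine, an alkaloid of Sophora roots, and the study asked whether it protects animals from radiation. The MASM + TBI group held 4 male Wistar rats that received MASM in water by stomach tube at 30 mg/kg of body weight per day for 3 days and were then exposed to 6.5 Gy from a 60Co source. The control group held 3 male rats of the same strain at 0 Gy. Livers were taken 24 h after exposure, and each rat had 1 Agilent array read in 1 colour. The dose is that of the labels, and the study's text names another. Another group of 3 rats, exposed to the same irradiation without MASM and called TBI here, completed the series of 10 arrays. No array came from a rat given MASM alone, so that what MASM did and what irradiation did cannot be told apart in this comparison, and the levels in the TBI rats are given beside a result where they bear on it. The labels do not say what the control and TBI rats received in place of MASM. The study's text says that the rats examined by electron microscopy were given MASM or water before irradiation. It describes livers of all groups as also used for the arrays.

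The 2 groups were chosen by their labels, which made 7 arrays of 10. A probe was described when its signal was well above background on every array of at least 1 of the 2 groups, and 22842 of the 40945 probes with a value on all arrays met this rule. Of these, 21379 were well above background on all 7 arrays, 957 entered through the control arrays alone and 506 through the MASM + TBI arrays alone. A probe that entered through 1 group alone was not well above background on every array of the other. This favours probes that differ, without every such probe being called. Such genes are therefore given with bounds, or, where some arrays of the dimmer group measured them, with the number of those arrays. Values are log2 signals after quantile normalization, which gives every array the same distribution, and a difference of 1 is a doubling. A call means an adjusted p under 0.05 in limma over all probes, together with a fold change of at least 1.5. The share of spots well above background lay between 57.2% and 59.9% on the control arrays and between 56.2% and 60.2% on the MASM + TBI arrays.

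The arrays lay on 3 slides, and the slide is the one technical split that touches every result. The 3 control rats and MASM + TBI rat 3 shared slide 1, MASM + TBI rats 1, 2 and 4 shared slide 3, and the 3 TBI rats shared slide 2. The value of rat 3 minus the mean of the controls is therefore a difference within 1 slide, and it is given below as the within-slide difference. It equals the estimate of a fit with the slide as a block, and it rests on 1 treated rat. The tissue was checked against its markers. All 14 measured hepatocyte markers, such as albumin and transferrin, were well above background on the arrays, none was called different, and their median log2 difference was 0.08. At an unadjusted p under 0.05 limma counted 2 of them as higher and the methods' t-test 1. Counts of the methods' t-test here use this unadjusted threshold and a fold change of at least 1.5, unless an adjusted count is named. The study names a simple t-test, and it was run here in Welch's form, which allows unequal spread. Its fold change compared mean linear signals, unlike that of limma.

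Ionising radiation breaks DNA, and the tumour suppressor p53 then switches on genes that halt the cell cycle, repair DNA or lead to cell death. In resting liver most hepatocytes do not divide, while resident and circulating blood cells carry much of the transcript for antigen presentation. Which cells carried the transcripts of division and of interferon responses was not tested. Lymphocytes are among the cells that radiation kills most readily. In bulk tissue fewer cells of a type and less RNA per cell cannot be told apart, and this holds for every gene below that marks a minor cell type.

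In the comparison of MASM + TBI with control, genes of the p53 response stood higher and genes of mitosis and of the interferon response stood lower. Of all probes, 963 (2.35%) were called, 379 higher (0.926%) and 584 lower (1.43%) in MASM + TBI. At an unadjusted p under 0.05 with the same fold change, 3301 probes (8.06%) were counted. Among the described probes 822 were called, 335 higher and 487 lower, and 387 of the 822 had no gene symbol. Among probes well above background on all 7 arrays, 294 were higher and 373 were lower. Of the 294 higher, 19 differed at least 4-fold, 79 between 2-fold and 4-fold, and 196 less than 2-fold. Of the 373 lower, 50 differed at least 4-fold, 143 between 2-fold and 4-fold, and 180 less than 2-fold. The 963 called probes had no overlap between the rats of the 2 groups, a property that 18.3% of all probes had. With the slide as a block 522 probes were called, 67.0% of them higher, against 39.4% higher without it. The count depended on single rats. Leaving out control rat 2 or 3 gave 461 or 465 calls, and leaving out MASM + TBI rat 1 or 4 gave 495 or 573. The plot of level against difference shows the called probes.

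**Figure D1:**
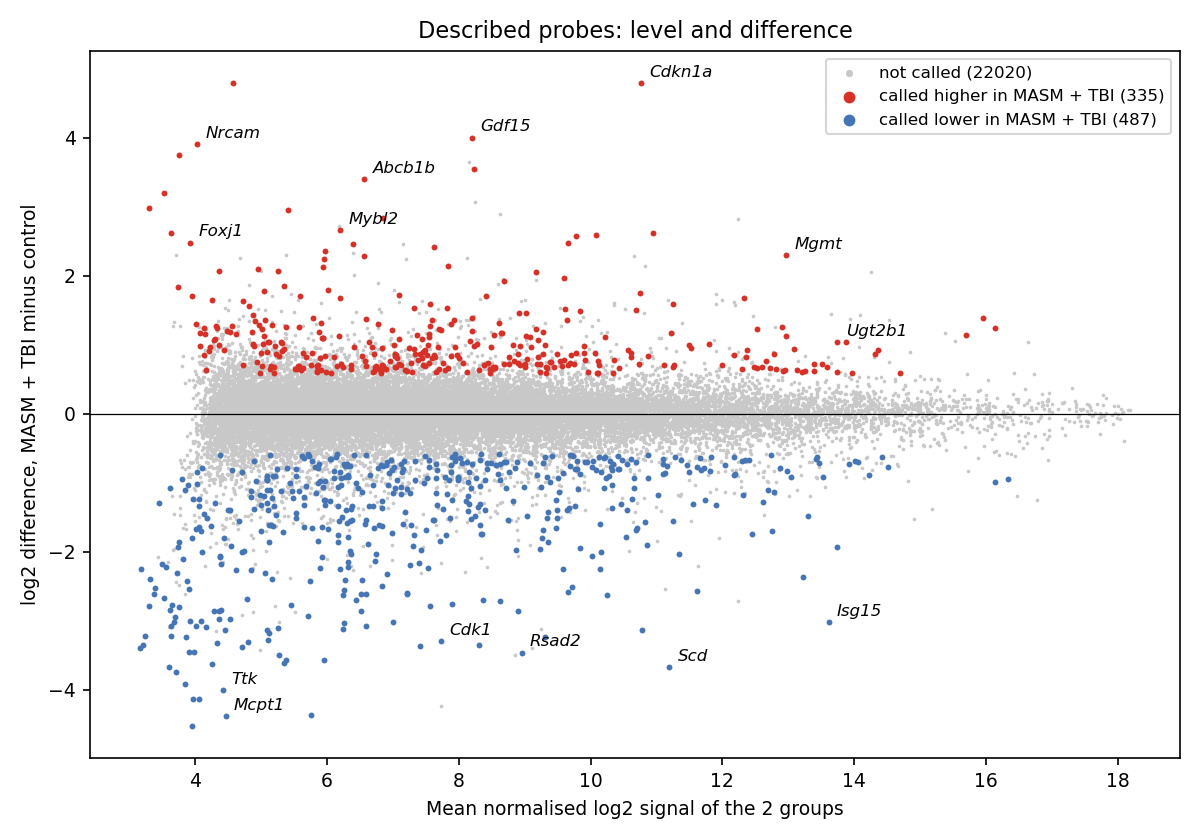
Each point is 1 of the 22842 described probes. The horizontal axis is the mean normalised log2 signal of the control and MASM + TBI groups, and the vertical axis is the log2 difference, MASM + TBI minus control. Red points (335) were called higher and blue points (487) lower, and the named genes include Cdkn1a at 4.80 and Scd at -3.67.

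With 1 probe taken for each gene, the brightest, 389 of 13420 genes were called (2.90%), 125 higher (0.931%) and 264 lower (1.97%). The p53 list, which holds genes that p53 is known to induce, had 23 members with a probe. Of these, 12 were called higher and 1 lower, and the median log2 difference of the 23 was 0.91, against -0.00 over all genes. The median within-slide difference of the list was also 0.91. The methods' t-test counted 13 before adjustment and called 2 after it, leaving out control rat 2 or control rat 3 gave 10 calls, and the slide as a block gave 8. Its mean level lay between 7.91 and 8.16 in the control rats and between 9.11 and 9.31 in the MASM + TBI rats. The 12 members called higher were Cdkn1a, Gdf15, Btg2, Ccng1, Phlda3, Aen, Tp53inp1, Mdm2, Bax, Zmat3, Fas and Sesn2.

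Cdkn1a encodes p21, the inhibitor of cyclin-dependent kinases through which p53 arrests the cell cycle. Its normalised log2 signal was 8.01, 8.25 and 8.84 in the control rats and 13.06, 13.23, 12.80 and 13.58 in the MASM + TBI rats. The difference of 4.80 ± 0.25 (SE) was the largest rise of any gene measured on all 7 arrays (27.8-fold, adjusted p = 0.000146), and the within-slide difference was 4.43. A dimmer probe of Cdkn1a, not well above background in any control rat, was called in the same direction. Gdf15, a circulating stress cytokine, had log2 signals of 5.73, 6.64 and 6.23 in the control rats and 10.36, 10.88, 10.60 and 8.97 in the MASM + TBI rats. MASM + TBI rat 4 was the lowest of its group and still lay above every control, and the difference was 4.0 ± 0.43 (adjusted p = 0.00317, within-slide 4.40). Ccng1, which encodes cyclin G1, was read as 8.61, 9.12 and 8.62 in the control rats and 11.36, 11.57, 10.74 and 11.82 in the MASM + TBI rats, a difference of 2.59 ± 0.25 (adjusted p = 0.00218, within-slide 1.95). Phlda3, an inhibitor of the kinase Akt, had 6.22, 6.30 and 6.71 in the control rats and 8.65, 8.92, 8.91 and 8.83 in the MASM + TBI rats, a difference of 2.41 ± 0.14 (adjusted p = 0.000286, within-slide 2.49).

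Btg2, an antiproliferative gene, was the least even of the strong risers. Its log2 signal was 9.0, 10.39 and 9.52 in the control rats and 12.61, 12.67, 12.93 and 10.80 in the MASM + TBI rats, so that rat 4 lay only just above the highest control. The difference of 2.62 ± 0.56 had an adjusted p of 0.0481, and the call was lost without any one of control rats 1, 2 and 3, MASM + TBI rats 1, 2 and 3 and TBI rats 1, 2 and 3 (adjusted p 0.055 to 0.152). Mdm2, a ubiquitin ligase that marks p53 for degradation, rose by 1.37 (adjusted p = 0.00372). Bax, which permeabilises mitochondria in apoptosis, rose by 1.17 (adjusted p = 0.000793), and the death receptor gene Fas by 1.11 (adjusted p = 0.0173). Sesn2, which restrains growth signalling through mTORC1, rose by 0.85 (adjusted p = 0.0173), and its call was lost without any one of control rat 2 and MASM + TBI rat 4 (adjusted p 0.0516 to 0.0699). Xpc, a sensor of bulky DNA lesions in nucleotide excision repair, was the one member called lower. Its log2 signal was 8.09, 8.44 and 8.17 in the control rats and 6.80, 7.61, 6.88 and 7.06 in the MASM + TBI rats, a difference of -1.15 ± 0.19 (adjusted p = 0.0216), and the call was lost without any one of control rats 2 and 3 and MASM + TBI rats 1, 3 and 4 (adjusted p 0.0521 to 0.0844). The apoptosis gene Bbc3 had a difference of -0.01 (adjusted p near 1) and the growth arrest gene Gadd45a one of 0.25 (adjusted p = 0.933), so neither was called.

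Outside the p53 list, 7 more genes completed the 12 largest rises among genes measured on all 7 arrays. Nhej1 encodes XLF, which aligns broken DNA ends for joining, and its log2 signal was 5.43, 5.35 and 5.53 in the control rats and 8.17, 8.32, 8.32 and 8.27 in the MASM + TBI rats. The rats of each group lay within 0.2 of one another, and the difference was 2.83 ± 0.14 (adjusted p = 0.000146, within-slide 2.88). A second and dimmer probe of Nhej1 went from a mean of 4.42 to 4.91 and was not called (adjusted p = 0.146). Mgmt removes alkyl groups from guanine in DNA. Its log2 signal was 11.59, 12.04 and 11.82 in the control rats and 13.88, 14.39, 14.01 and 14.17 in the MASM + TBI rats, a difference of 2.30 ± 0.15 (adjusted p = 0.000478, within-slide 2.20). Vxn was read as 6.11, 6.0 and 7.26 in the control rats and 9.80, 10.04, 10.18 and 10.02 in the MASM + TBI rats, a difference of 3.55 ± 0.32 (adjusted p = 0.00142, within-slide 3.73). Nrg1, a ligand of ErbB receptors, had 6.50, 6.70 and 7.11 in the control rats and 8.90, 9.0, 8.95 and 8.80 in the MASM + TBI rats, a difference of 2.15 ± 0.26 (adjusted p = 0.00482, within-slide 2.18), and both its probes were called.

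Abcb1b, one of the 2 rodent genes of the drug efflux pump P-glycoprotein, had log2 signals of 5.08, 5.03 and 4.48 in the control rats and 7.62, 9.18, 7.67 and 8.60 in the MASM + TBI rats. The difference was 3.40 ± 0.41 (adjusted p = 0.00473, within-slide 2.80). Probes of the close relatives Abcb1a and Abcb1b may share transcripts, and this was not tested. Mybl2, a transcription factor of the cell cycle, was read as 4.57, 4.79 and 5.23 in the control rats and 6.69, 8.21, 7.64 and 7.56 in the MASM + TBI rats, a difference of 2.66 ± 0.45 (adjusted p = 0.0216). The call on Mybl2 was lost without any one of control rats 1, 2 and 3 and MASM + TBI rats 3 and 4 (adjusted p 0.0532 to 0.0793), and its second probe went from 3.98 to 5.36 without a call (adjusted p = 0.0738). Ascl2, a transcription factor, had means of 6.24 ± 0.31 (SD) in control and 7.96 ± 0.44 in MASM + TBI, a difference of 1.72 ± 0.26 (adjusted p = 0.014). Its call was lost without control rat 2 (adjusted p = 0.0582). The plot of the leading genes shows the values of each rat.

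**Figure D2:**
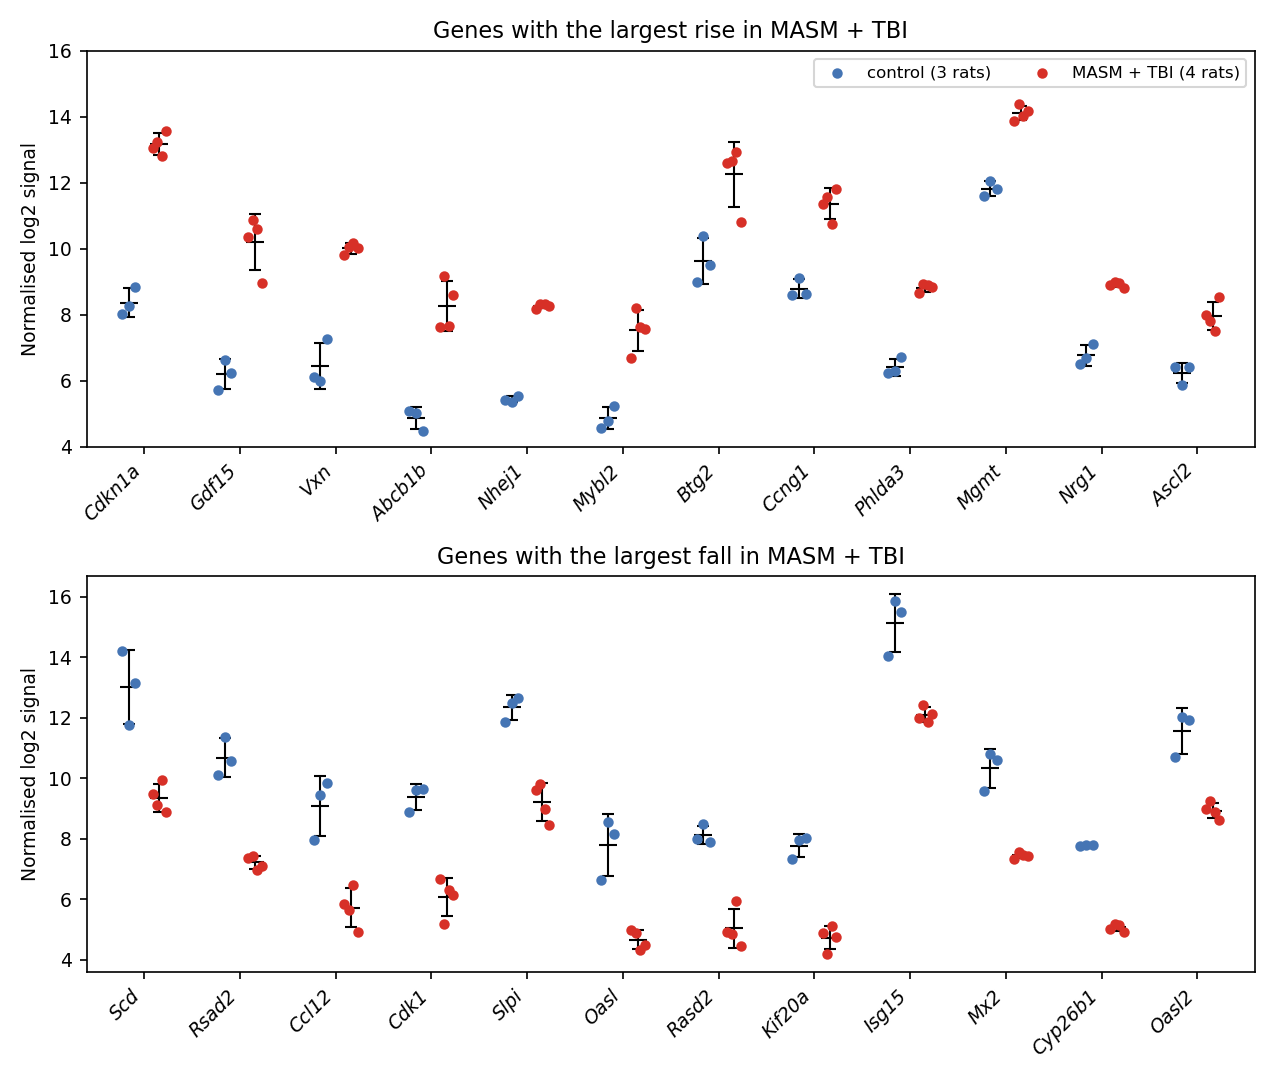
Normalised log2 signal in each control rat (blue, 3) and each MASM + TBI rat (red, 4) for the 12 genes with the largest rise and the 12 with the largest fall among called genes measured on all 7 arrays. Black bars are mean and SD, and no gene shown has overlapping groups, although Btg2 comes close with 10.39 in control rat 2 and 10.80 in MASM + TBI rat 4.

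A further set of genes was well above background in every MASM + TBI rat and in no control rat, so that only a lower bound on the fold can be given. The bound sets the bright group's mean against the lowest signal that counted as above background on the control arrays, or the control signal itself where that was higher. Nrcam, a cell adhesion molecule, was at least 4.29-fold higher, with log2 signals of 2.24, 1.95 and 2.04 in the control rats and 6.26, 5.10, 6.42 and 6.16 in the MASM + TBI rats (adjusted p = 0.000793). A second probe of Nrcam was below background on all 7 arrays and had a difference of -0.01. Foxj1, the transcription factor of motile cilia, was at least 2.43-fold higher, with 2.68, 2.84 and 2.52 in the control rats and 5.30, 5.17, 5.02 and 5.16 in the MASM + TBI rats (adjusted p = 0.000106). The bound for Cfap45, a protein of motile cilia, was 1.95-fold (adjusted p = 0.0177), and its call was lost without any one of control rats 2 and 3 and MASM + TBI rat 4 (adjusted p 0.053 to 0.0704). Kcnj16, a potassium channel subunit, was at least 2.07-fold higher (adjusted p = 0.00298). Pln, the inhibitor of the calcium pump SERCA, was at least 1.9-fold higher (adjusted p = 0.029). The Pln call was lost without any one of control rats 1, 2 and 3 and MASM + TBI rats 1, 2, 3 and 4 (adjusted p 0.0514 to 0.105).

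Of the lists used here, mitosis genes held the most called lower, 22 of the 264 genes called lower in all. This list holds cyclins, kinases, spindle motors and kinetochore proteins of dividing cells, and 31 members had a probe. Of these, 22 were called lower (1.97% of all genes were) and 0 higher, and 26 of the 31 did not overlap between the groups (18.3% of all probes did not). Of the 22, 4 did not meet the rule for described probes. The median log2 difference was -1.68 over the 31 members, the median within-slide difference was -1.66, and the mean level lay between 5.63 and 6.17 in the control rats and between 3.81 and 4.21 in the MASM + TBI rats. Only 9 of the 22 were well above background on all 7 arrays. Leaving out control rat 2 or control rat 3 gave 14 calls, the slide as a block gave 6, and the methods' t-test called 0 after adjustment and counted 25 before it. With normexp background correction, which compresses dim signals, 12 were called and the median was -0.42.

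Cdk1, the kinase that drives entry into mitosis, had log2 signals of 8.87, 9.62 and 9.64 in the control rats and 6.67, 5.19, 6.32 and 6.15 in the MASM + TBI rats. Rat 2 was the lowest, and all 4 treated rats lay more than 2 below the lowest control. The difference was -3.30 ± 0.37 (adjusted p = 0.00383, within-slide -3.06). Kif20a, a motor protein of cytokinesis, was read as 7.34, 7.95 and 8.03 in the control rats and 4.88, 4.19, 5.11 and 4.77 in the MASM + TBI rats, a difference of -3.03 ± 0.24 (adjusted p = 0.000893, within-slide -2.66). Plk1, a kinase of the spindle, had 7.78, 8.86 and 8.90 in the control rats and 6.20, 5.61, 5.97 and 5.87 in the MASM + TBI rats, a difference of -2.60 ± 0.27 (adjusted p = 0.00275, within-slide -2.54). Pttg1, which encodes securin, had a log2 difference of -1.79 (adjusted p = 0.0035).

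Several mitosis genes dropped below the background in MASM + TBI and have bounds only. Ttk, a kinase of the spindle checkpoint, was at least 6.01-fold lower, with log2 signals of 5.80, 6.74 and 6.75 in the control rats and 2.11, 1.63, 3.23 and 2.70 in the MASM + TBI rats (adjusted p = 0.0115). Its call was lost without any one of control rats 2 and 3 (adjusted p 0.0548 to 0.0552). Ccnb2, which encodes cyclin B2, was at least 5.9-fold lower (adjusted p = 0.00317), and Nuf2, a kinetochore protein, at least 3.44-fold lower (adjusted p = 0.000941). By the same rule the spindle genes Kif22 and Spag5, which are not on the list, were at least 6.11-fold and 4.53-fold lower (adjusted p = 0.00279 and 0.0186), and the Spag5 call was lost without any one of control rats 2 and 3 (adjusted p 0.0739 to 0.0782). Ect2, which directs cytokinesis, went from 6.95 ± 0.35 (SD) to 4.07 ± 1.11 and was not called (adjusted p = 0.0834).

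The promoters of mitosis genes are known for CCAAT boxes, bound by NF-Y, and for the cell cycle genes homology region, TTTGAA, bound by complexes that repress these genes in resting cells. In RefSeq windows around the start (GRCr8), searched on both strands, CCAAT was found in 28 of 35 members with a window, against 39.6% of 27457 genes. TTTGAA was found in 23 of the 35 (65.7%), against 19.4% of all genes. A match describes the letters and shows no binding. The 150 bases before the start of the 4 called mitosis genes with the largest differences that held both motifs within this stretch are shown because they share this layout, with CCAAT and TTTGAA, or their reverse complements ATTGG and TTCAAA, in capitals. They are Ccnb2, chr8:79981659-79981808, minus strand; Cdk1, chr20:19265143-19265292, plus strand; Prc1, chr1:143659331-143659480, plus strand; and Pttg1, chr10:28406327-28406476, minus strand.
Ccnb2: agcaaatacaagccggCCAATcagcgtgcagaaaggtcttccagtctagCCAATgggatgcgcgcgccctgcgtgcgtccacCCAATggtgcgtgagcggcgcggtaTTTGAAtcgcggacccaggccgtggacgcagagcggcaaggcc
Cdk1: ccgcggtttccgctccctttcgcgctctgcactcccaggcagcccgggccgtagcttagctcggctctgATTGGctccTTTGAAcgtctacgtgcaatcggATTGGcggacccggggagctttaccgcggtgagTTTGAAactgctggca
Prc1: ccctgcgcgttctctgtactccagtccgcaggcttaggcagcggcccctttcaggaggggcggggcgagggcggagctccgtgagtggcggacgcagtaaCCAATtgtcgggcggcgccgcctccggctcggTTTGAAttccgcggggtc
Pttg1: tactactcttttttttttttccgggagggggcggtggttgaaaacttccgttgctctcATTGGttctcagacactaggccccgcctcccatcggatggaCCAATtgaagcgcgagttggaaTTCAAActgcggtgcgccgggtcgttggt

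Genes that copy DNA had smaller differences. The replication list had 31 members with a probe, of which 11 were called lower (1.97% of all genes were) and 1 higher (0.931% of all genes were), with a median log2 difference of -0.67 and a median within-slide difference of -0.41. With normexp the median was -0.21 and 6 were called, with the slide as a block 5 were called, and the methods' t-test called 0 after adjustment and counted 16 before it. E2f1, a transcription factor of S phase, had log2 signals of 6.87, 6.90 and 7.11 in the control rats and 4.68, 4.66, 5.38 and 4.81 in the MASM + TBI rats, a difference of -2.08 ± 0.20 (adjusted p = 0.00218, within-slide -1.58), and its second probe was not called (adjusted p = 0.102). Mcm6, a subunit of the replicative helicase, was at least 2.9-fold lower (adjusted p = 0.00981) and the licensing factor Cdt1 at least 1.58-fold lower (adjusted p = 0.043). These bounds are for the group mean. The fitted log2 differences were -2.08 for Mcm6 and -2.39 for Cdt1, but within the slide -1.18 and -1.39. The Cdt1 call was lost without any one of control rats 1, 2 and 3, MASM + TBI rats 1, 2 and 4 and TBI rats 2 and 3 (adjusted p 0.0511 to 0.149). Tyms, which makes thymidylate, was the member called higher, at 7.14, 7.14 and 7.34 in the control rats and 8.27, 8.08, 7.88 and 8.46 in the MASM + TBI rats, a difference of 0.97 ± 0.14 (adjusted p = 0.013), and its call was lost without control rat 2 (adjusted p = 0.0586). The sliding clamp gene Pcna had a difference of -0.39 and was not called (adjusted p = 0.0894). The E2F motif TTTGGCGC was found in 7 of 27 replication genes with a window (25.9%) and in 0.554% of all genes, and TTTCCCGC in 5 of 27 (18.5%) and 1.09%.

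Many interferon-stimulated genes were lower in MASM + TBI than in control. These genes encode antiviral proteins and the factors that induce them, and 29 had a probe. Of these, 15 were called lower (1.97% of all genes were) and 0 higher, all 15 measured on all 7 arrays, and 22 of the 29 did not overlap between the groups (18.3% of all probes did not). The median log2 difference was -1.34 and the median within-slide difference -1.41. The mean level of the list lay between 9.83 and 10.77 in the control rats and between 8.71 and 9.02 in the MASM + TBI rats, and control rat 1 was the lowest control. Leaving out control rat 1, 2 or 3 gave 18, 10 or 9 calls, the slide as a block gave 6, and the methods' t-test called 0 after adjustment and 18 before it.

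Rsad2, which encodes the antiviral protein viperin, had log2 signals of 10.10, 11.38 and 10.58 in the control rats and 7.37, 7.45, 6.98 and 7.10 in the MASM + TBI rats. The difference was -3.46 ± 0.27 (adjusted p = 0.000796, within-slide -3.71), and both its probes were called. Isg15, a ubiquitin-like modifier, was read as 14.03, 15.85 and 15.49 in the control rats and 12.0, 12.43, 11.85 and 12.13 in the MASM + TBI rats, a difference of -3.02 ± 0.41 (adjusted p = 0.00858, within-slide -3.28). The controls spread over nearly 2 log2 units for Isg15, while the treated rats lay within 0.6 of one another. Mx2, a GTPase against viruses, had 9.58, 10.79 and 10.60 in the control rats and 7.35, 7.57, 7.48 and 7.44 in the MASM + TBI rats, a difference of -2.87 ± 0.28 (adjusted p = 0.00202, within-slide -2.85). The 2'-5' oligoadenylate synthetase relatives Oasl and Oasl2, the second not on the list, had differences of -3.12 ± 0.42 (adjusted p = 0.00846) and -2.62 ± 0.33 (adjusted p = 0.00588), and a probe may read transcripts of such relatives together, as with Mx1 and Mx2, which was not tested. The regulators Irf7 and Irf9 were also called, with differences of -2.36 and -0.75 (adjusted p = 0.0286 and 0.0113).

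Many interferon-stimulated genes carry an element bound by ISGF3 and IRF factors with a core of GAAA, any 2 bases and GAAA again, a motif chosen here after the values were seen. It was found in 15 of 23 members with a window (65.2%) and in 4.12% of all 27457 genes. The 150 bases before the start of the 4 called genes with the largest differences that held the core within this stretch are shown to place it, with the core on either strand in capitals. They are Rsad2, chr6:48788121-48788270, minus strand; Irf7, chr1:205800024-205800173, minus strand; Ifit3, chr1:241527176-241527325, plus strand; and Oas1a, chr12:41330316-41330465, plus strand.
Rsad2: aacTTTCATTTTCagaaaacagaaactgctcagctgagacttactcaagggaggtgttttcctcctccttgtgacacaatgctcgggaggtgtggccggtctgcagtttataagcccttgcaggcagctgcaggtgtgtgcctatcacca
Irf7: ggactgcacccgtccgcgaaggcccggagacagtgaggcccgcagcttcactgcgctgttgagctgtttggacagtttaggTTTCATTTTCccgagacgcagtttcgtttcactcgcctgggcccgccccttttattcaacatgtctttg
Ifit3: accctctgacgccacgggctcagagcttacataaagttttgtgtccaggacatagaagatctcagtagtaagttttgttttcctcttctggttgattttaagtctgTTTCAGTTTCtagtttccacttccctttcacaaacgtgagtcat
Oas1a: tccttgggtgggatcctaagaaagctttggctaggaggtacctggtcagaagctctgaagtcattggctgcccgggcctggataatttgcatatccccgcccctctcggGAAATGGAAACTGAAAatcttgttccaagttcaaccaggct

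**Figure D3:**
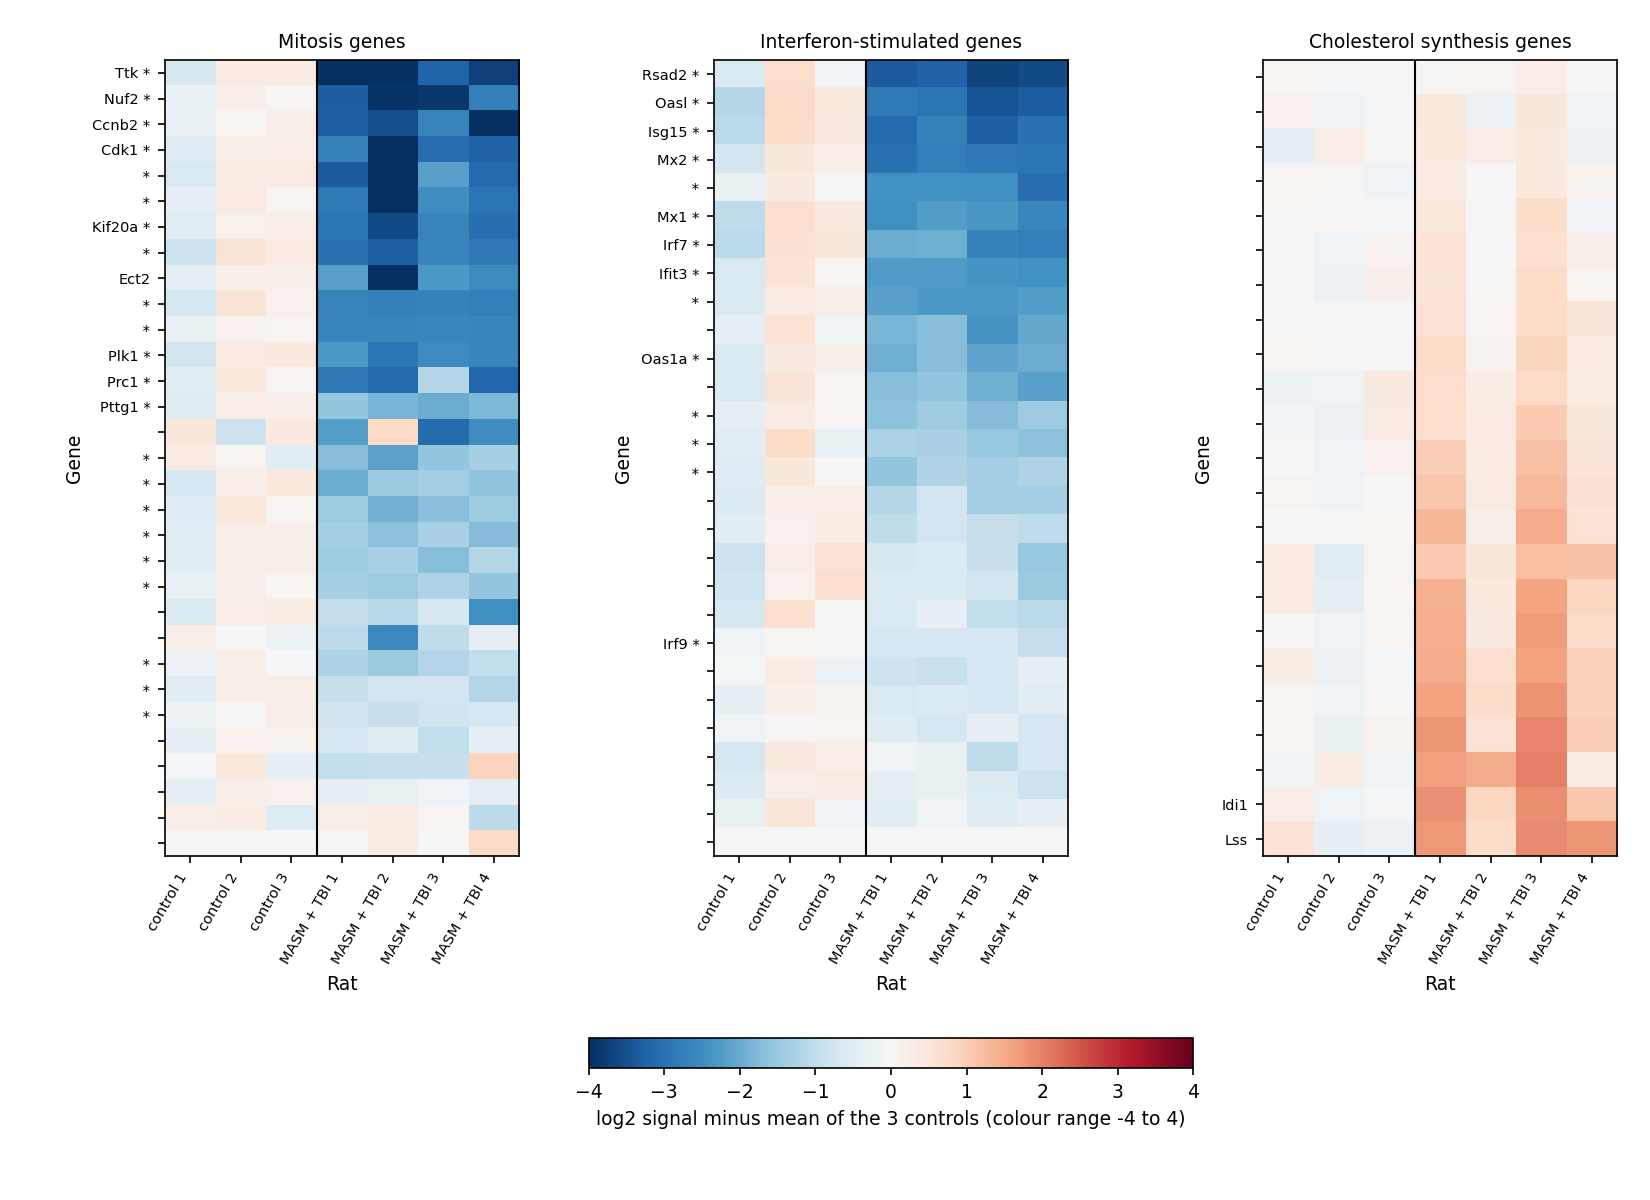
Log2 signal of measured list members minus the mean of the 3 controls, with 1 column for each of the 7 rats, 1 row for each gene drawn, names for genes given in the text, and an asterisk for a called gene. The called mitosis and interferon-stimulated genes drawn are below the control mean in all 4 MASM + TBI rats, while most cholesterol synthesis genes, none of them called by limma (13 counted at an unadjusted p under 0.05 and 13 by the methods' t-test), lie nearer to control in rats 2 and 4 than in rats 1 and 3.

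Some markers of lymphocytes, natural killer cells and mast cells were called lower, and most members of these lists were not called. These counts stand beside 1.97% of all genes called lower. Of 11 B lymphocyte markers 3 were called lower, with a list median of -1.10 (within-slide -1.34, normexp -0.21), and Cr2 was below background on all 7 arrays. Fcmr, the IgM Fc receptor, had log2 signals of 7.69, 7.04 and 6.75 in the control rats and 2.68, 3.82, 3.97 and 3.90 in the MASM + TBI rats, and it was well above background on 1 of the 4 MASM + TBI arrays, so that its size is uncertain (adjusted p = 0.00189). Cd79b, a chain of the B cell receptor, was at least 2.55-fold lower (adjusted p = 0.00378). Fcrla, also measured on 1 of the 4 MASM + TBI arrays, had an adjusted p of 0.0216, and its call was lost without any one of control rats 2 and 3 and MASM + TBI rats 1, 3 and 4 (adjusted p 0.0531 to 0.0869). Of 16 T lymphocyte markers 4 were called lower, with a median of -0.58 (within-slide -0.67, normexp -0.20). Cd3g, a chain of the T cell receptor complex, was read as 7.07, 7.31 and 7.09 in the control rats and 4.40, 3.76, 3.09 and 2.93 in the MASM + TBI rats, and it too was well above background on 1 of the 4 MASM + TBI arrays (adjusted p = 0.00343). Cd6 had a log2 difference of -1.56 (adjusted p = 0.01). Cd3e was called with every array below background, so it has no usable level, and the second probe of Cd6 was below background on all 7 arrays and not called.

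Of 13 natural killer cell markers 2 were called lower (1.97% of all genes were), Klrk1 at -1.64 ± 0.35 (adjusted p = 0.0495) and Xcl1 at -1.53 ± 0.30 (adjusted p = 0.0376), with a list median of -1.27 (within-slide -1.40, normexp -0.54). Both calls were fragile, and with single rats left out 0 to 4 members of the list were called. The Klrk1 call was lost without any one of control rats 2 and 3, MASM + TBI rats 1, 2, 3 and 4 and TBI rat 2 (adjusted p 0.0688 to 0.164), and the Xcl1 call without any one of control rats 1, 2 and 3, MASM + TBI rats 1, 2, 3 and 4 and TBI rats 2 and 3 (adjusted p 0.0505 to 0.098). Mcpt1, a protease of mucosal mast cells, had log2 signals of 6.46, 6.90 and 6.59 in the control rats and 1.68, 2.64, 2.58 and 2.16 in the MASM + TBI rats, and was at least 7.01-fold lower (adjusted p = 0.000478), since no MASM + TBI array was above background. The mast cell genes Cpa3 and Cma1 were at least 1.38-fold and 1.19-fold lower (adjusted p = 0.00489 and 0.02), and the Cma1 call was lost without any one of control rats 1, 2 and 3 (adjusted p 0.0519 to 0.083). These were 3 of 12 mast cell markers (1.97% of all genes were called lower), with a list median of -0.17 (within-slide -0.36, normexp -0.06), and Mcpt4, Fcer1a, Ms4a2 and Kit were below background on all 7 arrays. With single rats left out the mast cell median lay between -0.40 and -0.09.

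No Kupffer cell or macrophage marker was called among 13 (0 also at an unadjusted p under 0.05 by limma or by the methods' t-test), and their median was -0.36 (within-slide -0.50, normexp -0.20). With single rats left out this median lay between -0.53 and -0.19. Of 15 neutrophil and monocyte markers 1 was called (2 without control rat 1), and this count and the next 2 stand beside 2.90% of all genes called in either direction. It was the ficolin gene Fcnb, at 8.64, 8.88 and 8.54 in the control rats and 6.76, 6.97, 6.85 and 7.16 in the MASM + TBI rats, a difference of -1.75 ± 0.15 (adjusted p = 0.00123). Of 11 erythroid markers Ahsp alone was called, at -1.39 ± 0.28 (adjusted p = 0.0385), and its call was lost without any one of control rats 1 and 2, MASM + TBI rats 1, 2, 3 and 4 and TBI rats 1 and 2 (adjusted p 0.0521 to 0.124). Of 13 stellate cell markers Lrat, which stores retinol as an ester, was called at -0.60 ± 0.09 (adjusted p = 0.0147), and its call was lost without any one of control rat 1 and MASM + TBI rats 1 and 4 (adjusted p 0.0403 to 0.0511), without control rat 1 or MASM + TBI rat 4 through the fold change alone. None of 13 sinusoidal endothelium markers was called by limma (2 at an unadjusted p under 0.05, 1 by the methods' t-test) and none of 8 cholangiocyte markers (1 and 0). These marker levels stand beside the mitosis and interferon results, and their part in those results was not tested.

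MHC class II genes, by which B cells, macrophages and dendritic cells present antigen, had a median log2 difference of -1.0 over 11 members (within-slide -1.35, normexp -0.23), and limma called 0 of them (1 at an unadjusted p under 0.05, and 4 by the methods' t-test). Cd74, the invariant chain, was read as 11.84, 12.44 and 12.60 in the control rats and 10.84, 11.28, 10.51 and 10.36 in the MASM + TBI rats, and the groups did not overlap. Its difference of -1.55 ± 0.99 had an adjusted p of 0.511. The TBI rats, which share the estimate of spread, were at 10.86, 15.29 and 15.38. With TBI rat 1 left out 3 members were called, and with the 2 groups alone 2 were called, Cd74 among them in both cases.

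Cholesterol synthesis genes had estimates above 0 without passing the test. These genes encode the enzymes from acetyl-CoA to cholesterol with their sterol-sensing regulators, and the estimate was above 0 for 24 of 24 members. The median was 0.80 and the median within-slide difference 1.19. Limma called 0 of the 24, while 13 were counted higher at an unadjusted p under 0.05 and 13 by the methods' t-test. The mean level of the list was at most 10.90 in the control rats, and 11.85, 11.19, 12.04 and 11.35 in MASM + TBI rats 1, 2, 3 and 4, so that all 4 lay above all controls and rats 1 and 3 highest. Lss, which closes the sterol ring, had log2 signals of 9.34, 8.45 and 8.53 in the control rats and 10.50, 9.51, 10.67 and 10.54 in the MASM + TBI rats, a difference of 1.53 ± 0.35 (adjusted p = 0.0623). Idi1, an isomerase of the mevalonate pathway, was read as 12.02, 11.59 and 11.68 in the control rats and 13.59, 12.61, 13.63 and 12.87 in the MASM + TBI rats, a difference of 1.41 ± 0.37 (adjusted p = 0.0884). When only described probes were tested, 5 members were called.

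In other pathways of the liver 0 to 3 members of a list were called, and 1 call in a list of this size is a share not far from the 2.90% of all genes called. Scd, the desaturase that makes monounsaturated fatty acids, had log2 signals of 14.19, 11.76 and 13.14 in the control rats and 9.48, 9.12, 9.96 and 8.88 in the MASM + TBI rats, the largest fall among genes measured on all 7 arrays at -3.67 ± 0.71 (adjusted p = 0.0355, within-slide -3.08). The controls spread over more than 2 log2 units, and the call was lost without any one of control rats 1 and 3, MASM + TBI rats 1, 2, 3 and 4 and TBI rat 1 (adjusted p 0.0516 to 0.119). Gpam, which starts triglyceride synthesis, was read as 6.78, 6.56 and 6.98 in the control rats and 8.46, 8.40, 8.12 and 8.48 in the MASM + TBI rats, a rise of 1.59 ± 0.13 (adjusted p = 0.00101, within-slide 1.35). Pklr, the liver pyruvate kinase, had a difference of -1.39 ± 0.22 (adjusted p = 0.0165), and its call was lost without any one of control rat 3 and MASM + TBI rat 4 (adjusted p 0.0503 to 0.0722). These were the 3 called among 17 fatty acid synthesis genes, whose median was 0.05. Of 27 fat oxidation genes limma called 0 (5 at an unadjusted p under 0.05, and 1 by the methods' t-test), with a median of -0.05, and 2 were called without control rat 1.

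Slc37a4, the transporter that brings glucose 6-phosphate to its phosphatase, was the 1 called of 18 gluconeogenesis genes, at 15.02, 14.83 and 14.88 in the control rats and 14.18, 14.15, 14.08 and 14.12 in the MASM + TBI rats, a difference of -0.78 ± 0.10 (adjusted p = 0.00727), and its second probe went from 14.76 to 14.05 without a call (adjusted p = 0.0807). With single rats left out, 1 to 2 gluconeogenesis genes were called. Abcc2, which exports bilirubin glucuronides into bile, was the 1 called of 22 bile acid and sterol transport genes and of 26 Nrf2 targets, at 14.39, 14.19 and 14.30 in the control rats and 13.39, 13.68, 13.69 and 13.49 in the MASM + TBI rats, a difference of -0.73 ± 0.10 (adjusted p = 0.00833). Of 27 cytochrome P450 genes Cyp2t1 alone was called (-0.69 ± 0.12, adjusted p = 0.0199), and its call was lost without any one of control rats 2 and 3 and MASM + TBI rats 1, 2 and 4 (adjusted p 0.0506 to 0.0641). Sult1e1, which sulfates oestrogens, was the 1 called of 18 growth hormone axis genes (0.65 ± 0.11, adjusted p = 0.0197), lost without any one of control rats 2 and 3 and MASM + TBI rats 1 and 2 (adjusted p 0.0503 to 0.0814). Without TBI rat 1, which enters the estimate of spread, 4 cytochrome P450 genes, 3 bile acid and sterol transport genes, 4 Nrf2 targets and 2 growth hormone axis genes were called. Dbp, a clock-controlled transcription factor, was the 1 called of 15 clock genes (0 to 2 with single rats left out). Its log2 signal was 13.34, 13.34 and 13.35 in the control rats and 12.14, 12.02, 12.65 and 12.03 in the MASM + TBI rats, a difference of -1.13 ± 0.21 (adjusted p = 0.0297) but -0.69 within the slide, and the call was lost without any one of control rats 1, 2 and 3 and MASM + TBI rats 1, 2 and 4 (adjusted p 0.0688 to 0.104) and with the slide as a block (adjusted p = 0.339). The E-box CACGTG was found in 5 of 17 clock genes with a window (29.4%) and in 7.08% of all genes.

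Of 25 chaperone genes 2 were called higher, beside 0.931% of all genes called higher. Hsp90aa1 was at 13.84, 13.83 and 13.99 in the control rats and 14.47, 14.82, 14.75 and 14.94 in the MASM + TBI rats. Its difference was 0.86 ± 0.12 (adjusted p = 0.00892), with 3 of its 4 probes called. Hspb8 was at 0.68 ± 0.15 (adjusted p = 0.0488), and its call was lost without any one of control rats 1, 2 and 3, MASM + TBI rats 1, 2, 3 and 4 and TBI rat 3 (adjusted p 0.0612 to 0.139). Of 23 genes of the integrated stress response the call was on Sesn2 alone, given above, and 2 members were called without control rat 1 or MASM + TBI rat 4. Of 28 inflammatory cytokines and chemokines Ccl4 alone was called, at -1.84 ± 0.35 (adjusted p = 0.034), lost without any one of control rats 2 and 3 and MASM + TBI rats 1, 3 and 4 (adjusted p 0.079 to 0.109), and Il6, Tnf, Ccl20, Sele, Selp, Ptgs2 and Nos2 were below background on all 7 arrays. Limma called 0 of 22 acute phase genes (3 at an unadjusted p under 0.05, 2 by the methods' t-test), 0 of 20 glucocorticoid-responsive genes (4 and 1), 0 of 24 immediate-early and MAP kinase phosphatase genes (2 and 0) and 0 of 24 urea cycle and amino acid breakdown genes (3 and 1). The mean level of the immediate-early list was 7.60, 8.59 and 8.06 in the control rats and 9.0, 8.87, 8.94 and 7.71 in the MASM + TBI rats, so that rat 4 lay among the controls and the others above them. Its median difference was 0.45, with 0.10 and 0 calls without control rat 1 and 0.72 and 4 calls without MASM + TBI rat 4. The hepcidin gene Hamp, which limits iron uptake, had means of 16.12 ± 0.70 (SD) and 17.17 ± 0.14 (adjusted p = 0.0894), and Upp2, which cleaves uridine, had 10.60 ± 0.54 and 7.10 ± 1.23 (adjusted p = 0.0526).

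Of the 12 largest falls measured on all 7 arrays, 5 belonged to none of the lists, Oasl2, given above, and 4 more. Slpi, an inhibitor of leukocyte proteases, had log2 signals of 11.87, 12.50 and 12.67 in the control rats and 9.61, 9.83, 8.98 and 8.45 in the MASM + TBI rats, a difference of -3.13 ± 0.60 (adjusted p = 0.0329, within-slide -3.37), and the call was lost without any one of control rats 1, 2 and 3 and MASM + TBI rats 1, 2, 3 and 4 (adjusted p 0.0515 to 0.12). The chemokine gene Ccl12 was read as 7.98, 9.45 and 9.85 in the control rats and 5.87, 5.67, 6.49 and 4.91 in the MASM + TBI rats, a difference of -3.36 ± 0.53 (adjusted p = 0.017), lost without any one of control rats 2 and 3 (adjusted p 0.0675 to 0.0697). Cyp26b1, which degrades retinoic acid, had 7.77, 7.78 and 7.80 in the control rats and 5.04, 5.20, 5.16 and 4.93 in the MASM + TBI rats, a difference of -2.70 ± 0.43 (adjusted p = 0.0177, within-slide -2.63). Its rats lay within 0.3 of one another in each group, while the TBI rats spread from 4.20 to 6.46, and the call was lost without any one of control rats 2 and 3 and MASM + TBI rats 1 and 4 (adjusted p 0.0528 to 0.0702). Rasd2, a small GTPase, had 7.99, 8.48 and 7.91 in the control rats and 4.92, 4.87, 5.94 and 4.45 in the MASM + TBI rats, a difference of -3.08 ± 0.48 (adjusted p = 0.016), lost without any one of control rats 2 and 3 and MASM + TBI rat 1 (adjusted p 0.0516 to 0.0682), and its second probe was dim and not called.

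**Figure D4:**
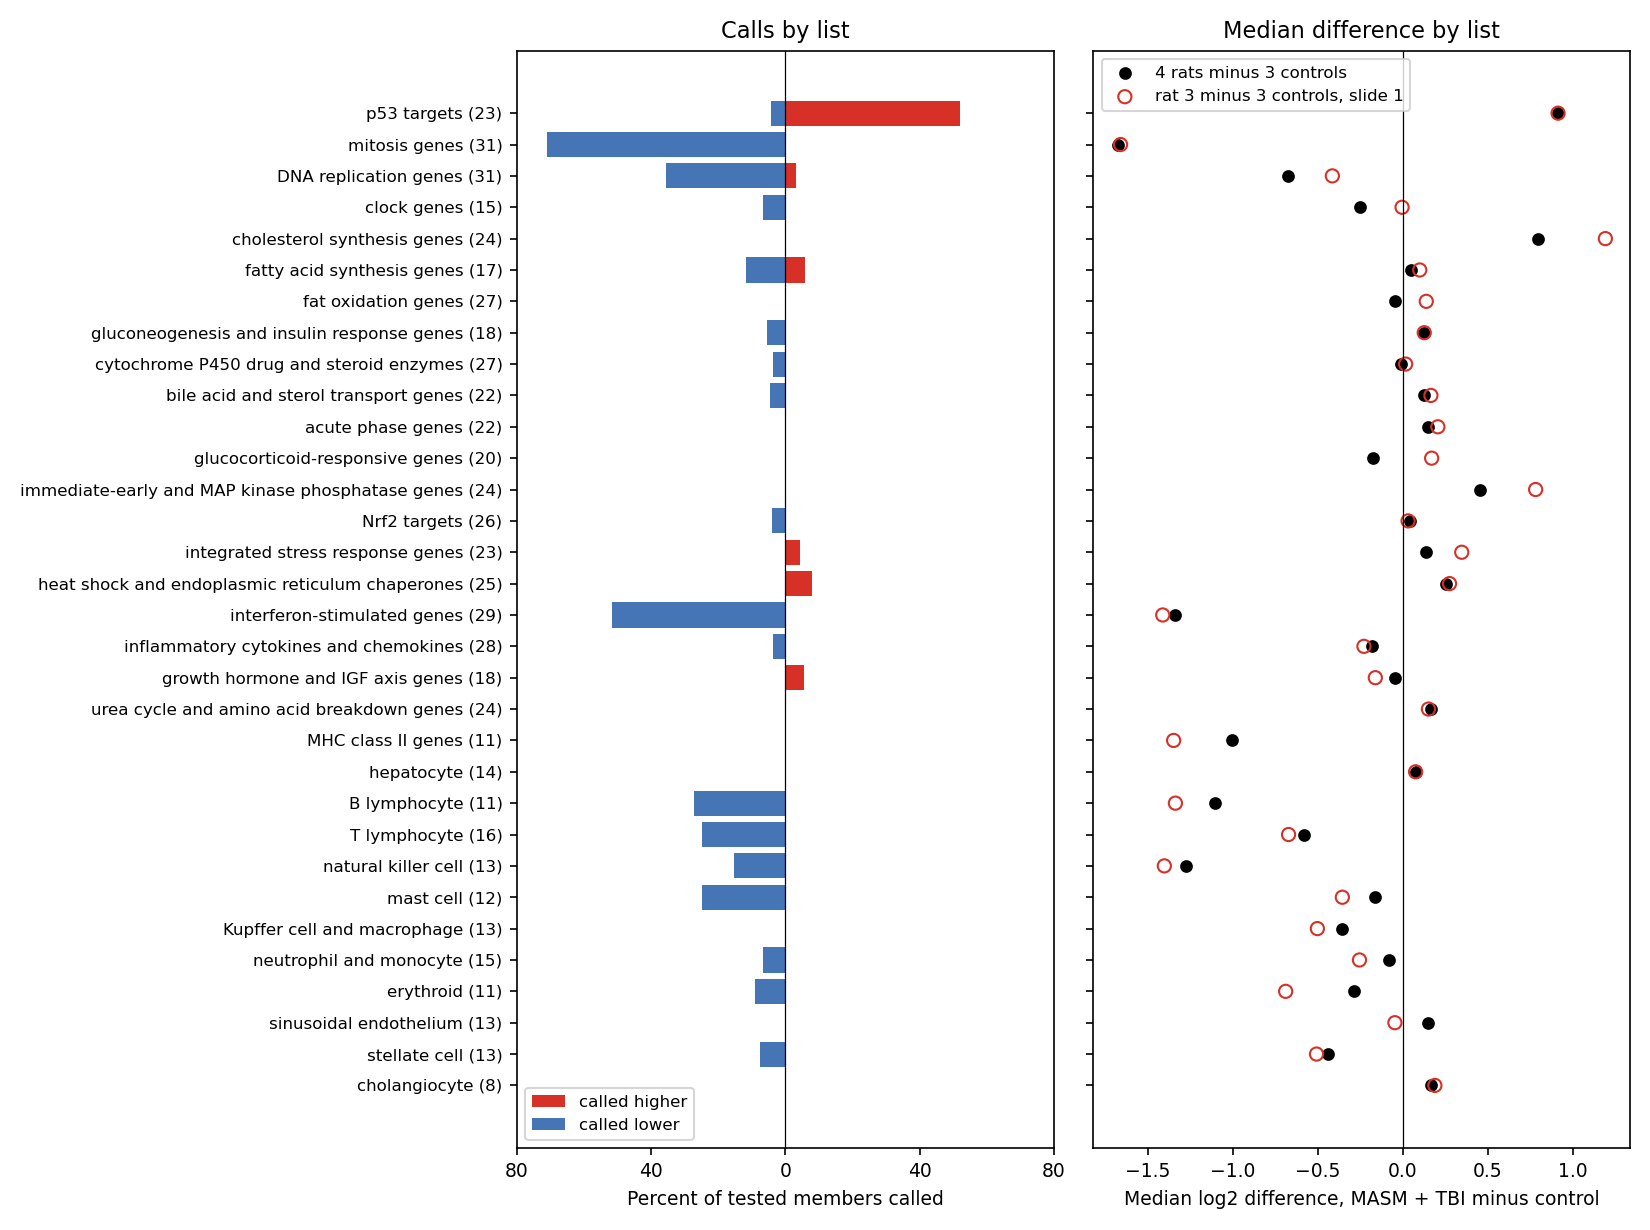
For each of 21 gene lists and 11 marker lists, with the number of measured members in brackets, the left panel gives the percent of members called higher (red, to the right) or lower (blue, to the left). The right panel gives the median log2 difference over the 4 MASM + TBI rats (black) and for rat 3 alone on slide 1 (open red), and the p53, mitosis and interferon lists have nearly the same value in both, at 0.91 and 0.91, -1.68 and -1.66, and -1.34 and -1.41.

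The levels in the TBI rats are set beside those in MASM + TBI. All TBI arrays lay on slide 2 and no MASM + TBI array did, so that the slide and the group cannot be told apart in any difference between them, and 64.1% to 70.1% of spots were well above background on the TBI arrays. The control rats enter both comparisons with control, so the test used here is MASM + TBI against TBI itself, in which 1.39% of all probes were called. The list medians of MASM + TBI minus TBI were -0.02 for p53 targets, 0.03 for mitosis genes, 0.14 for DNA replication genes and -0.11 for interferon-stimulated genes, and 0 members of these 4 lists were called in it. Cdkn1a was 13.47, 13.67 and 14.06 in TBI, Cdk1 was 5.74, 5.55 and 6.37 and Rsad2 was 7.09, 6.85 and 7.04, beside the MASM + TBI values given above. Their differences from TBI, each with an adjusted p above the threshold, were -0.57 ± 0.25, 0.20 ± 0.37 and 0.23 ± 0.27. The cholesterol synthesis list had a median of 0.34 above TBI and the MHC class II list one of -1.85, again with 0 members called.

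The rule found 3 genes called against both control and TBI in 1 direction, the second time across slides. Beside these 3 stand 389 genes called against control and the 1.39% of all probes called against TBI. Both comparisons share the MASM + TBI rats, so the 2 calls on a gene are not independent. Ugt2b1, which attaches glucuronic acid to steroids and drugs, had log2 signals of 13.38, 13.17 and 13.12 in the control rats and 14.19, 14.52, 14.20 and 14.16 in the MASM + TBI rats, and 13.39, 13.32 and 13.19 in the TBI rats. All 4 MASM + TBI rats lay above the other 6, with a difference of 1.04 ± 0.11 from control (adjusted p = 0.00332, within-slide 0.98) and of 0.97 ± 0.11 from TBI (adjusted p = 0.00818). Abcb1a, the other P-glycoprotein gene, was read as 4.86, 4.38 and 4.32 in the control rats and 5.47, 5.42, 5.71 and 5.52 in the MASM + TBI rats, and 3.11, 3.42 and 3.78 in the TBI rats. Its difference was 1.01 ± 0.18 from control (adjusted p = 0.0286, within-slide 1.19) and 2.09 ± 0.18 from TBI (adjusted p = 0.00326, 2 of 3 TBI arrays well above background), and the call against control was lost without any one of control rats 2 and 3 and MASM + TBI rats 1, 2, 3 and 4 (adjusted p 0.0552 to 0.11). Abcb1b was 7.24, 7.12 and 7.92 in TBI and was not called against it (0.84 ± 0.41, adjusted p = 0.341). Cpa3, the mast cell carboxypeptidase, had 4.35, 4.29 and 4.27 in the control rats and 1.44, 2.03, 2.77 and 1.96 in the MASM + TBI rats, and 3.77, 3.67 and 3.32 in the TBI rats. It was not well above background on any MASM + TBI array, so no size is given for its difference from TBI (adjusted p = 0.035). Mcpt1 was at 1.81, 2.14 and 2.82 in TBI.

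Across the lists 5 further members were called against TBI and not against control, and they are named because they are few. With 8 to 31 tested members in each list, this is no larger a share than the 1.39% of all probes called against TBI. Per2, a clock repressor, had log2 signals of 8.37, 8.57 and 8.52 in control, 9.09, 8.86, 9.43 and 8.74 in MASM + TBI and 7.55, 7.67 and 7.88 in TBI. Gclm, a subunit of the enzyme that starts glutathione synthesis, had 4.76, 4.52 and 4.39, 4.98, 4.83, 4.42 and 5.24 and 2.35, 1.71 and 2.91 in the same order, with 1 of 3 TBI arrays well above background. The sterol exporter gene Abcg8, the glucocorticoid-induced gene Zbtb16 and the T cell coreceptor gene Cd8b differed from TBI by 1.77 ± 0.26, 2.12 ± 0.40 and -2.01 ± 0.28 (adjusted p = 0.0176, 0.0435 and 0.0135). Their differences from control were 0.54 ± 0.26, -0.27 ± 0.40 and -1.23 ± 0.28 (adjusted p = 0.343, 0.84 and 0.0555). For Per2 and Gclm the differences from control were 0.54 ± 0.17, with a 95% interval of 0.16 to 0.92, and 0.31 ± 0.29, with -0.35 to 0.97.

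**Figure D5:**
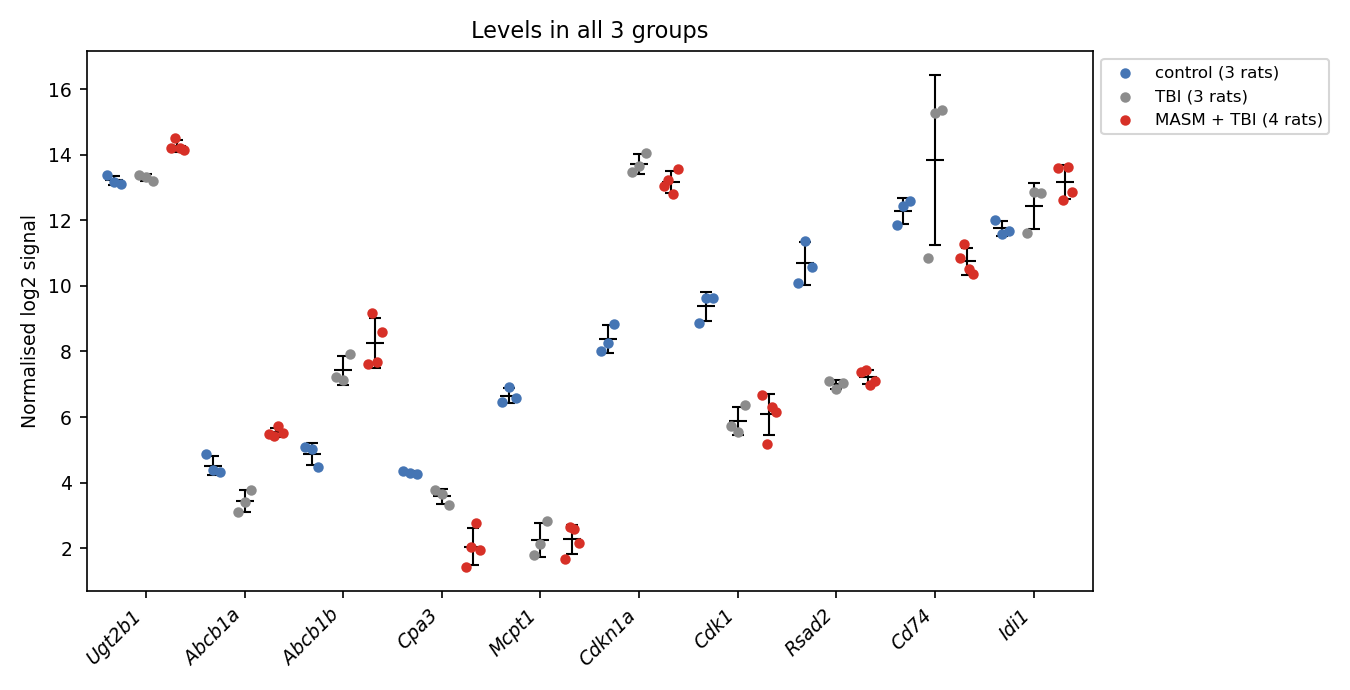
Normalised log2 signal of each rat in control (blue, 3), TBI (grey, 3) and MASM + TBI (red, 4) for 10 genes described above, with mean and SD in black. Ugt2b1 stands apart in MASM + TBI, Cdkn1a, Cdk1, Rsad2 and Mcpt1 lie near one another in both irradiated groups, and Cd74 splits the TBI rats, with 10.86 in rat 1 and 15.29 and 15.38 in rats 2 and 3.

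Of the 68 named genes that were called, 38 kept the call whichever rat was left out. With the slide as a block, 24 of the 68 kept the call, among them Ccng1, Cd3e, Cd3g, Cd6, Cdkn1a, Cpa3, E2f1, Fcmr, Fcnb, Foxj1, Gdf15, Gpam, Kif20a, Mcm6, Mcpt1, Mgmt, Mx2, Nhej1, Nrcam, Nuf2, Phlda3, Rsad2 and Vxn. The other 44 lost it in a fit that rests the difference on MASM + TBI rat 3. The 22 named genes that were not called stood for lists without a call. They included the hepatocyte enzyme genes Agxt at 0.57 ± 0.13 (adjusted p = 0.0665) and Cyp2e1 at 0.59 ± 0.15 (adjusted p = 0.0879).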

How the data were processed

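Agilent 4-array slides of rat design (45018 spots, 41012 probes) carried Cy3-labelled liver RNA of 1 rat each. Per the file headers, the deposited intensity values are Feature Extraction signals (gProcessedSignal), background-subtracted and detrended by the authors' scanner software and not normalized between arrays, and the value table of the series held the same intensity values. Feature Extraction 10.7 is the version in the submitters' processing notes. Control spots (1639) and spots with an outlier mark (76 to 112 an array) were left out, spots of a probe were averaged, values were taken as log2 and quantile normalized over the 10 arrays, and 67 probes without a value on some array were dropped. No spot was saturated.

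Groups came from the sample labels. A heat map of the study names the control and TBI arrays the other way round, and the labels were followed. Cdkn1a, which p53 induces after irradiation, was 8.01 to 8.84 in the rats labelled control and 13.47 to 14.06 in those labelled TBI. Nothing in the labels pairs the rats, and the number of arrays limits the precision. All 3 groups were fitted in limma 3.58.1 (R 4.3.3) with Benjamini-Hochberg adjustment over 40945 probes, with 8.43 degrees of freedom. The replicates are separate rats. A gene was read from its brightest probe, and 16959 probes had 1 symbol (13432 genes). The array annotation follows rn4, and promoters are RefSeq windows of GRCr8.

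The genes named in the text were, among called genes without overlap, the 12 largest rises and 12 largest falls on all 7 arrays, the 5 largest bounds each way, at most 5 genes each way called also against TBI in the same direction, and from each list at most 4 called members each way, or the 2 with the smallest p where none was called. Further list members, chosen after their values were seen, are named to describe a list. The members and lists were chosen with earlier results of these data known. Alternatives were 75th percentile scaling, normexp (offset 50, median signals), filters on dim probes, the 2 groups alone, a trended and robust prior, the methods' t-test, the replicate number and the slide as blocks, and each rat left out. The procedure was tested on simulated data. Some list members are counted but not reported by name here.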

Additional observations from a re-analysis of the deposited data

Results flagged for a closer look

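Among 90 named genes, 8 had 1 MASM + TBI rat set apart from the other 3 by more than Dixon's 95% limit for 4 samples, where chance gives about 1 in 20 groups. The measure is the gap to the nearest rat divided by the range of the group. MASM + TBI rat 2 was the one set apart for 5 of the 8, namely Ccl4 (0.944), Dusp4 (0.831), Lss (0.852), Spag5 (0.907) and Ugt2b1 (0.877). MASM + TBI rat 4 was set apart for Btg2 (0.849), rat 3 for Fcgr2b (0.883) and rat 1 for Fcmr (0.877). Spag5 was not well above background on any MASM + TBI array, so its gap lies between values without a measured level, and Fcmr was well above background on 1 of the 4.

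The MASM + TBI and TBI groups differed by limma's test for Abcb1a (2.09), Cpa3 (-1.54) and Ugt2b1 (0.968), given as log2 differences of MASM + TBI minus TBI. The arrays of these groups shared no slide, so slide and group cannot be told apart. Cpa3 was not well above background on any MASM + TBI array, so that its value is a fitted one and no measure of size.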

How the results depend on the processing

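Without a replicate block 963 probes were called, 379 higher and 584 lower, with 3301 at an unadjusted p under 0.05. Same-numbered rats deviated together for 1 number of 3 (correlations of -0.09, 0.34 and 0.03), so the numbers were not taken to pair the rats, and with the replicate number as a block 298 were called, 100 higher and 198 lower, and 35 of 68 named calls that were recomputed were lost. With normexp 455 were called (153 higher, 302 lower, 748 unadjusted), with the methods' t-test 28 after adjustment (18 higher, 10 lower) and 2357 before it, with the slide as a fixed block 522 (172 lower), and with the slide as a random block 1805 (772 higher, 1033 lower). Leaving out 1 rat gave 461 to 1044 calls, 159 to 430 higher and 294 to 662 lower, with 2816 to 3528 unadjusted. Of the named calls, 68 were recomputed under the alternatives, and none of these 68 changed direction under those run, while other named genes, such as Mdm2, Bax, Plk1 and Irf7, were not followed in this way. The groups of called genes did not overlap, so leaving out a rat or the fixed slide block could not turn a direction. Those runs therefore do not bear on it. Medians of lists with few calls changed sign: with the slide as a fixed block, fat oxidation genes went from -0.05 to 0.14, glucocorticoid-responsive genes from -0.18 to 0.17 and sinusoidal endothelium markers from 0.15 to -0.05. Fatty acid synthesis genes went from 0.05 to -0.05 without control rat 2, cytochrome P450 genes from -0.01 to 0.06 and growth hormone axis genes from -0.05 to 0.03 with 75th percentile scaling, and Nrf2 targets from 0.04 to -0.01 with the replicate block. Of the 68, normexp lost 19, the methods' t-test 65, the fixed slide block 44 and 75th percentile scaling 6 (Abcc2, Cd3e, Dbp, Hspb8, Lrat and Slc37a4), and for genes near background, such as those of mitosis and lymphocytes, normexp gave smaller differences. The cause was not tested.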
